A study of Mus musculus with 12 samples.

Results

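The genes described here are 8 of the 23420 in the count table of a series on the mouse pylorus, and their products carry or control acid secretion in the gastric parietal cell. They were chosen by symbol, and are Atp4a, Atp4b, Kcnq1, Kcne2, Kcnj15, Slc26a7, Slc9a4 and Esrrg. RNA was sequenced from bulk pylorus, where the stomach opens into the duodenum. The mice were C57BL/6. One genotype was wild-type, and the other was CEA424-SV40 T Ag transgenic, in which a carcinoembryonic antigen promoter drives the T antigen of simian virus 40. Tissue was taken at an age of 60 days (D60) or 80 days (D80), which gave 4 groups of 3 libraries. The labels name no treatment. Whether each library is a different animal is not stated either, so the p-values measure the spread between these libraries, which may be technical.

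The parietal cell secretes hydrochloric acid through the gastric proton pump, which exchanges cytoplasmic protons for luminal potassium and is built from a catalytic alpha subunit (Atp4a) and a glycosylated beta subunit (Atp4b). The potassium it takes in is returned to the lumen by a channel of the pore subunit Kcnq1 and the small beta subunit Kcne2, with the inward rectifier Kcnj15 as another candidate, while basolateral exchangers such as Slc9a4 and the chloride transporter Slc26a7 balance ions on the other side of the cell. Esrrg is an orphan nuclear receptor of the estrogen-related family that is expressed in parietal cells. Gastrin, histamine and acetylcholine stimulate secretion, and somatostatin inhibits it. Parietal cells are abundant in the corpus of the stomach and sparse in the pyloric antrum, where the gastrin and somatostatin cells lie.

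The libraries held 20121600 to 27633715 counts, and the floor of detection was set at 3 counts, or 0.109 to 0.149 CPM depending on the library. CPM is the count per 1000000 counts of the library, adjusted with TMM factors for composition. Sex was not balanced over the groups. The 3 D60 wild-type libraries held Y-linked transcripts, the 3 D60 transgenic and the 3 D80 wild-type libraries held Xist, and the D80 transgenic group held 1 library of the first kind and 2 of the other. Genotype and sex therefore cannot be told apart at D60. Only the D80 transgenic group held both kinds. A fit with sex as a covariate takes its sex term from replicate 1 of that group against replicates 2 and 3. Such a fit cannot tell sex from other differences of that replicate. D80 wild-type replicate 3 had the highest sum of duodenal enterocyte markers in its group, at 11681 CPM against a median of 2864, and D80 transgenic replicate 1 the highest sum of pancreatic acinar markers, at 4312 CPM against a median of 1013. D80 wild-type replicate 1 stood apart from replicates 2 and 3 of its group as well. It held 70380 CPM of gland mucous cell markers against 30849 and 20032, 9555 CPM of chief cell markers against 4120 and 3586, and 75588 CPM of surface mucous cell markers against 138762 and 146868. Calls of the acid secretion genes that change on leaving out any of these 3 libraries are given beside the result.

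The proton pump came close to the floor in the wild-type pylorus. Atp4a, which lies at chr7:30712209-30725534 on the plus strand in the GENCODE M21 annotation of GRCm38, had 28, 9 and 13 counts in the 3 D60 wild-type libraries and 18, 10 and 9 in the 3 D80 wild-type libraries. Atp4b, at chr8:13386205-13396825 on the minus strand, had 8, 0 and 2 counts at D60 and 0, 5 and 9 at D80. By contrast the exchanger Slc9a4, the potassium channel Kcnq1 and the inward rectifier Kcnj15 were well measured in the same libraries. Per kilobase of exon, D60 wild-type libraries averaged 45.5 CPM for Slc9a4, 10.2 for Kcnq1 and 3.64 for Kcnj15, and only 0.246 for Atp4a and 0.130 for Atp4b. Kcne2 at 0.237, Esrrg at 0.214 and Slc26a7 at 0.0861 were as low as the pump. The pump transcripts that define the parietal cell were thus near 0, as were Kcne2, Esrrg and Slc26a7, while Slc9a4, Kcnq1 and Kcnj15 were well above it. The 8 genes are described here as acid secretion genes by their function and not as the transcripts of 1 cell type. A list of 12 parietal cell markers, which holds 7 of the 8 genes, summed to 261 to 362 CPM in the 9 libraries that were not D80 transgenic, where most of the sum was Slc9a4, and to 157 to 204 CPM in the D80 transgenic libraries. The list did not move as 1. Of its 11 genes tested between genotypes at D80, 4 were higher and 3 lower at an edgeR adjusted p under 0.05. The set itself gave 2 of the higher calls (Atp4a and Esrrg) and 2 of the lower (Kcnj15 and Slc9a4). Outside it, Cckbr and Hrh2 were higher and Kcnj16 was lower. The median log2 fold change of the 11 genes was 0.33, and of all genes tested 19.4% were higher and 22% lower. In bulk tissue, fewer cells of a type and less RNA per cell cannot be told apart.

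The promoters of Atp4a and Kcnj15 are shown because these genes moved furthest in opposite directions in the D80 transgenic libraries. Each window runs from 250 bases before to 50 bases after a RefSeq transcription start on GRCm38.p6, at chr7:30711959-30712258 (plus strand) for Atp4a and at chr16:95257308-95257607 (plus strand) for Kcnj15. Capitals mark the hexamer AGATAA, to which factors of the GATA family bind.
Atp4a promoter: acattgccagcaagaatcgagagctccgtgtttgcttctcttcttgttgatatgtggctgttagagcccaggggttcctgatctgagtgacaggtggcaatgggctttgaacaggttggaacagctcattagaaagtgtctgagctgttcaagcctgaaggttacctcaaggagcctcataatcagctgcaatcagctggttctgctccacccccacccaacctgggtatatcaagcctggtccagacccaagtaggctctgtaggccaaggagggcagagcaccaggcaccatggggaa
Kcnj15 promoter: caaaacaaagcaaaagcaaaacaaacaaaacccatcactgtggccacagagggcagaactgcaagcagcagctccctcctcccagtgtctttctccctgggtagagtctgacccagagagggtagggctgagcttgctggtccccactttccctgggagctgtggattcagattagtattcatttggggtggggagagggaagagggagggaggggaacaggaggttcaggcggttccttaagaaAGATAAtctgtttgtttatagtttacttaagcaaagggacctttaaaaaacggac
The RefSeq table matched 4 of the 8 genes, Atp4a, Kcne2, Kcnj15 and Esrrg, with 8 start sites between them. AGATAA, searched on both strands, was found in 1 of these 8 windows, that of Kcnj15, starting 5 bases before the start site, and in 11.2% of all 32851 promoter windows of the same length. TNAAGGTCA, the extended recognition sequence bound by estrogen-related receptors, was found in 0 of the 8 windows and in 1.28% of all windows. A match describes letters in the window and not binding.

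At D80, Atp4a was higher in transgenic than in wild-type libraries, and the inward rectifier Kcnj15 and the exchanger Slc9a4 were lower. Esrrg was higher. Of the 7 genes that passed the filter on low counts, 2 were higher and 2 lower at an adjusted p under 0.05 in the edgeR quasi-likelihood test, and the others did not pass. At the same age 41.3% of the 15369 genes tested were called, 19.4% higher and 22% lower, so a call at this age was common among all genes. Groups did not overlap for the same 4 genes at D80, against 50.5% of all genes tested. The median log2 fold change of the 7 genes was 0.55, beside -0.07 over all genes tested. Atp4b did not pass the filter and enters none of these counts.

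At D60 none of the 7 genes passed the edgeR test, nor DESeq2 or limma-voom, and 1 of them, Esrrg, had an unadjusted p under 0.05. This stood against 3.9% of all genes (3.66% higher, 0.241% lower). With the median at 0.52, beside -0.00 over all genes, 5 of the 7 had a log2 fold change above 0, and the groups overlapped for all 7. Groups did not overlap for 20% of all genes at that age.

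**Figure D1:**
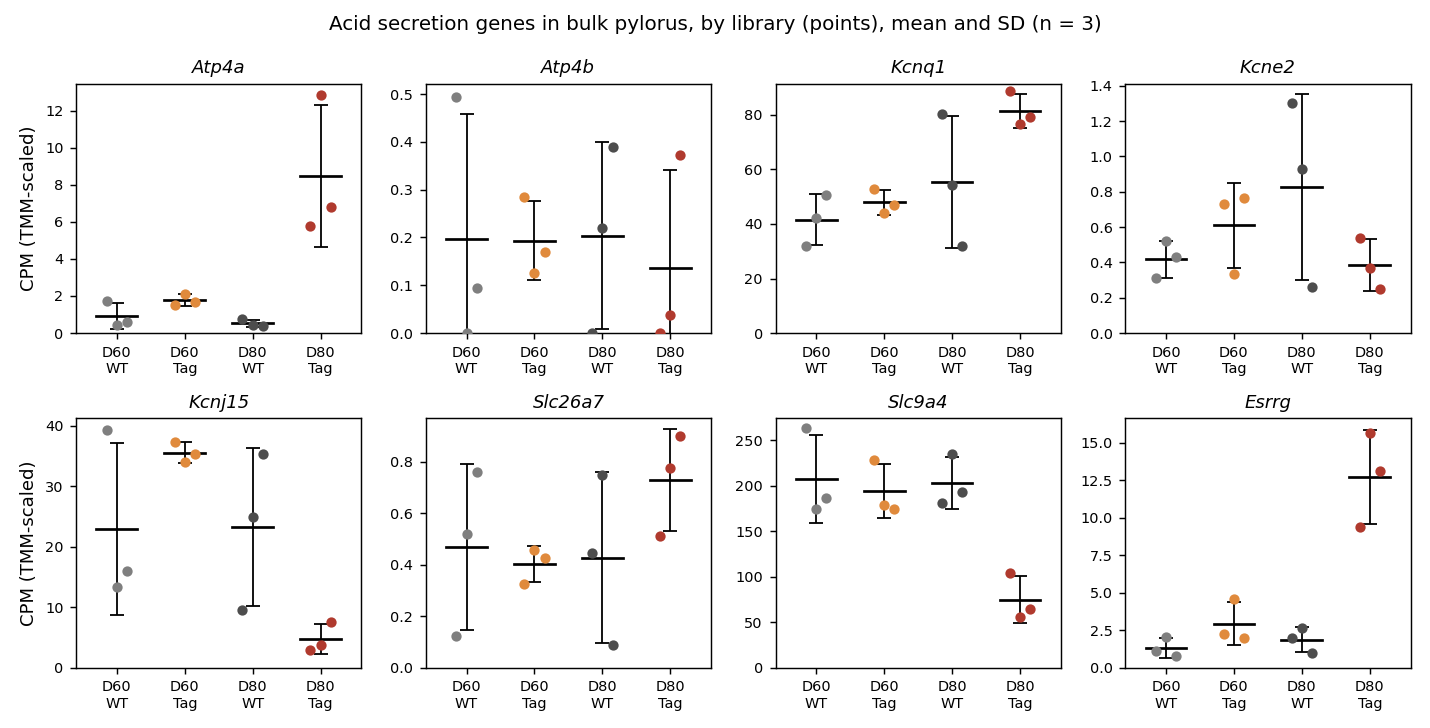
Levels of the 8 acid secretion genes in CPM (vertical axes, linear, a scale of its own for each gene) in each of the 12 libraries (points) with the mean and SD of each group (bars, n = 3); Tag stands for the CEA424-SV40 T Ag transgenic mice. The D80 transgenic libraries stand above all others for Atp4a and Esrrg and below all others for Kcnj15 and Slc9a4, while Atp4b, Kcne2 and Slc26a7 stay under 1.4 CPM in every library.

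Atp4a, the catalytic subunit of the pump, was at 1.73, 0.424 and 0.619 CPM in the D60 wild-type libraries and at 0.731, 0.441 and 0.390 CPM in the D80 wild-type libraries. It was at 1.5, 2.13 and 1.66 CPM in the D60 transgenic libraries and at 5.77, 12.8 and 6.82 CPM in the D80 transgenic libraries, from 192, 348 and 220 counts. Every D80 transgenic library lay above all 9 others, and D60 wild-type replicate 1 lay above 2 of the 3 D60 transgenic libraries. Mean levels at D80 were 8.47 ± 3.81 CPM in transgenic and 0.521 ± 0.184 CPM in wild-type libraries (SD, n = 3 each), a log2 fold change of 4.0 (SE 0.52, edgeR adjusted p = 1.34e-04). At D60 the log2 fold change was 0.97 (SE 0.49, edgeR adjusted p = 0.409). Between D60 and D80 it rose by 2.26 on the log2 scale in transgenic libraries (SE 0.46, edgeR adjusted p = 0.00362), and in wild-type libraries the difference was -0.77 (SE 0.54, edgeR adjusted p = 0.605). No other gene of the annotation overlaps Atp4a.

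Atp4b, the beta subunit that the pump needs to reach the membrane, did not follow the alpha subunit. Its 12 values ran from 0 to 0.494 CPM, with 10 counts in the D60 wild-type group, 14 in the D60 transgenic group, 14 in the D80 wild-type group and 13 in the D80 transgenic group. In the D80 transgenic group the counts were 0, 1 and 12 by replicate, so replicate 3 held nearly all of them. In a fit without the filter the log2 fold change at D80 was -0.53 with a SE of 1.27 (edgeR adjusted p = 0.785), and a difference was not detectable at this depth.

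Per length, the subunits were at about the same mean level in D80 wild-type libraries, at 0.138 CPM per kilobase for Atp4a and 0.135 for Atp4b. In the D80 transgenic libraries Atp4a was at 1.53, 3.41 and 1.81 CPM per kilobase, and Atp4b was at 0, 0.0244 and 0.246. Of the pooled counts of both genes, Atp4b made up 27.5% in the D80 wild-type group (14 of 51, 95% Clopper-Pearson interval 15.9 to 41.7%) and 1.68% in the D80 transgenic group (13 of 773, 0.898 to 2.86%). The shares were 16.7% at D60 in wild-type (10 of 60, 8.29 to 28.5%) and 9.93% in transgenic libraries (14 of 141, 5.54 to 16.1%). Single libraries weigh on these shares. On leaving out 1 library in turn the share ran from 15.2 to 42.4% in D80 wild-type, from 0.185% (without replicate 3, 1 of 541 counts) to 2.83% in D80 transgenic, from 8.33% (without replicate 1) to 19.6% in D60 wild-type and from 7.22 to 12.6% in D60 transgenic libraries. The D80 intervals of the genotypes do not overlap, but they cover counting error only and no test over libraries was made.

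**Figure D2:**
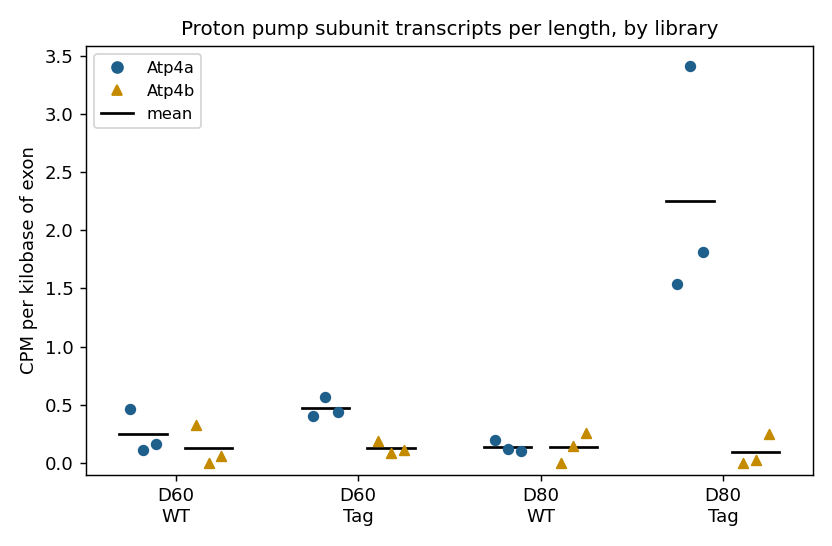
Levels of the pump's alpha (Atp4a, circles) and beta (Atp4b, triangles) subunits in CPM per kilobase of exon (vertical axis, linear) in each of the 12 libraries, with the mean of each group of 3 as a bar. Both subunits stay under 0.6 in the 9 libraries that are not D80 transgenic, and in the D80 transgenic libraries only Atp4a rises above that, to a mean of 2.25.

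Kcnq1, the pore subunit of the potassium channel, at chr7:143106362-143427042 on the plus strand, was at 32.0, 42.2 and 50.7 CPM in D60 wild-type and at 80.4, 54.2 and 31.9 CPM in D80 wild-type libraries. It was at 52.9, 43.9 and 47.0 CPM in D60 transgenic and at 88.6, 76.7 and 79.1 CPM in D80 transgenic libraries. D80 wild-type replicate 1 lay within the D80 transgenic range, so the genotypes overlapped at both ages. The log2 fold change was 0.20 at D60 (SE 0.27, edgeR adjusted p = 0.821) and 0.55 at D80 (SE 0.27, edgeR adjusted p = 0.118). Without D80 wild-type replicate 1 the D80 value was 0.92 and passed the test (edgeR adjusted p = 0.00705), and with library totals alone for scaling it was 0.93 and also passed (edgeR adjusted p = 0.0328).

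Between D60 and D80, Kcnq1 rose by 0.76 on the log2 scale in transgenic libraries (SE 0.27, edgeR adjusted p = 0.0436). The call was lost with the replicate number as a block (edgeR adjusted p = 0.0617), with sex as a covariate (0.106), and on leaving out any 1 of 8 libraries. These were replicate 2 of either wild-type group and each of the 6 transgenic libraries. Exons of Kcnq1 overlap the antisense RNA Kcnq1ot1, which was listed with 21 to 86 counts a library, and no source used here gives the strand setting of the counting, so reads of both genes may not have been told apart.

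Kcne2, the beta subunit that keeps the Kcnq1 channel open in acid, at chr16:92292389-92298129, stayed between 0.248 and 1.30 CPM, from 5 to 32 counts a library. Group means were 0.418 CPM in D60 wild-type, 0.611 in D60 transgenic, 0.829 in D80 wild-type and 0.386 in D80 transgenic libraries. The log2 fold change was 0.52 at D60 (SE 0.58, edgeR adjusted p = 0.774) and -1.09 at D80 (SE 0.55, edgeR adjusted p = 0.133). D80 wild-type replicate 3, the library with the most duodenal transcripts, had 0.260 CPM, while replicates 1 and 2 had 1.30 and 0.926. Without it the D80 value was -1.52 and passed the test (edgeR adjusted p = 0.0285). Kcnq1 stood at 19.9 CPM per kilobase and Kcne2 at 0.218 in D80 transgenic libraries.

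Kcnj15, an inward rectifier potassium channel at chr16:95257558-95300260, whose promoter is printed above, fell in the D80 transgenic libraries. It was at 39.4, 13.4 and 16.0 CPM in D60 wild-type and at 9.51, 25.0 and 35.4 CPM in D80 wild-type libraries. It was at 37.4, 34.1 and 35.3 CPM in D60 transgenic and at 3.0, 3.76 and 7.62 CPM in D80 transgenic libraries. The wild-type libraries were widely spread at both ages, and the D80 transgenic libraries lay below all 9 others. The log2 fold change at D80 was -2.28 (SE 0.52, edgeR adjusted p = 0.00526), against 0.64 at D60 (SE 0.49, edgeR adjusted p = 0.633). Between the ages it fell by 2.89 on the log2 scale in transgenic libraries (SE 0.53, edgeR adjusted p = 0.00223). The D80 genotype call held on leaving out any single library and was lost, at -1.60 (edgeR adjusted p = 0.0556), only on leaving out D80 wild-type replicate 3 and D80 transgenic replicate 1 together. An antisense gene, Gm49643, overlaps its exons and is not in the count table.

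Slc9a4, a sodium-proton exchanger at chr1:40580081-40630725, was the most abundant of the 8 genes per length in 3 of the 4 groups. It was at 263, 174 and 186 CPM in D60 wild-type, 228, 179 and 175 in D60 transgenic and 181, 235 and 193 in D80 wild-type libraries. In D80 transgenic libraries it was at 104, 55.3 and 64.4 CPM, below all 9 others. The D80 means of 74.5 ± 25.8 and 203 ± 28.4 CPM (SD, n = 3 each) gave a log2 fold change of -1.45 (SE 0.24, edgeR adjusted p = 8.07e-04). It was -0.10 at D60 (SE 0.24, edgeR adjusted p = 0.923). Between the ages Slc9a4 fell by 1.38 on the log2 scale in transgenic libraries (SE 0.24, edgeR adjusted p = 0.00165). In D80 transgenic libraries it stood at 16.3 ± 5.65 CPM per kilobase, beside 19.9 ± 1.54 for Kcnq1, a difference within its spread. Antisense genes Gm35801 and Gm37435 overlap its exons and are not in the count table.

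Slc26a7, a chloride transporter of the basolateral membrane at chr4:14502430-14621805 on the minus strand, stayed between 0.0867 and 0.899 CPM. It was the lowest of the 8 genes per length in 3 of the 4 groups, and below it in D80 transgenic libraries stood only Atp4b. The log2 fold change was -0.25 at D60 (SE 0.67, edgeR adjusted p = 0.932) and 0.76 at D80 (SE 0.63, edgeR adjusted p = 0.355), and no difference was detectable at this depth.

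Esrrg, the nuclear receptor, at chr1:187608791-188214885, rose in the D80 transgenic libraries. It was at 1.11, 2.07 and 0.809 CPM in D60 wild-type and at 1.99, 2.65 and 0.997 CPM in D80 wild-type libraries. It was at 2.28, 4.58 and 1.96 CPM in D60 transgenic and at 9.40, 15.7 and 13.1 CPM in D80 transgenic libraries. The D80 transgenic libraries lay above all 9 others, and the D60 genotypes overlapped. The log2 fold change was 2.76 at D80 (SE 0.45, edgeR adjusted p = 7.04e-04) and 1.13 at D60 (SE 0.46, edgeR adjusted p = 0.266). Between the ages Esrrg rose by 2.11 on the log2 scale in transgenic libraries (SE 0.43, edgeR adjusted p = 0.00386).

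**Figure D3:**
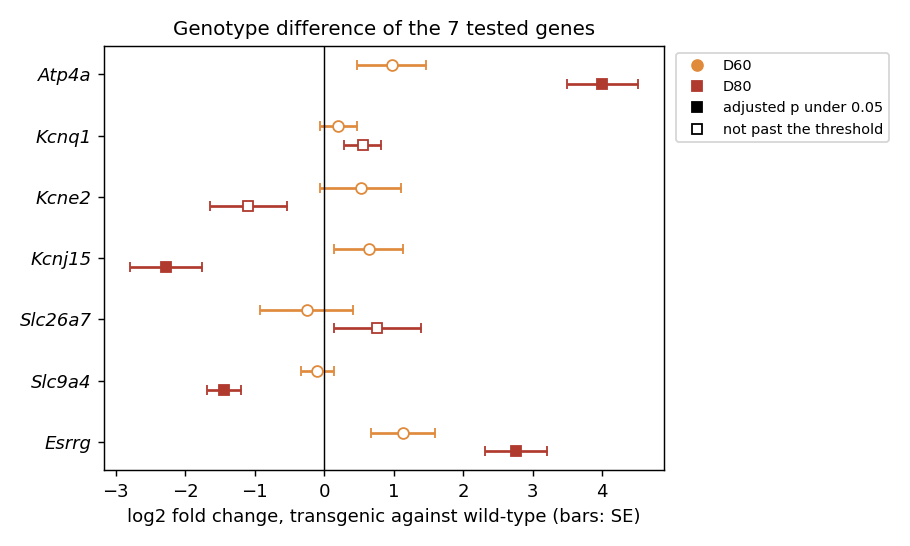
Log2 fold change of transgenic against wild-type libraries (horizontal axis) for the 7 genes tested, at D60 (circles) and D80 (squares), with bars of 1 SE; filled symbols have an edgeR adjusted p under 0.05. No gene is filled at D60, and at D80 Atp4a (4.0) and Esrrg (2.76) lie to the right and Kcnj15 (-2.28) and Slc9a4 (-1.45) to the left.

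The call at D80 was kept by Atp4a, Slc9a4 and Esrrg under all 25 alternatives tried, with a log2 fold change of at least 3.07 for Atp4a, at most -1.03 for Slc9a4 and at least 2.45 for Esrrg. In the transgenic libraries 3 of the 7 genes rose and 2 fell between D60 and D80, against 35.7% of all genes called (17.7% higher, 18% lower). Groups did not overlap for 6 of the 7, against 58.5% of all genes. In wild-type libraries none of the 7 passed, with DESeq2 or limma-voom either, and 0 had an unadjusted edgeR p under 0.05. Their groups overlapped for all 7, where 11.6% of all genes had groups that did not. That comparison of wild-type ages called 0.0% of genes with edgeR (1925 at an unadjusted p under 0.05), 260 genes with DESeq2 and 0 with limma-voom, and its ages also differed in sex. The comparisons share libraries, since the D80 transgenic group enters both the genotype and the age comparison.

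Whether the genotype difference itself changed with age was tested by the interaction of genotype and age. The difference was larger at D80 than at D60 by 3.03 on the log2 scale for Atp4a (SE 0.70, edgeR adjusted p = 0.0337), and it was lower by a log2 value of -2.91 for Kcnj15 (SE 0.72, edgeR adjusted p = 0.0409) and -1.35 for Slc9a4 (SE 0.34, edgeR adjusted p = 0.0428). These were 3 of the 7 genes, against 5.0% of all genes tested (2.77% higher, 2.23% lower). For Esrrg the value was 1.62 (SE 0.63, edgeR adjusted p = 0.15), so a change of its genotype difference with age was not shown. The calls lay near the threshold. With the replicate number as a block, Atp4a (edgeR adjusted p = 0.0536) and Kcnj15 (0.0679) missed it and Slc9a4 (0.0302) passed. With sex as a covariate, Atp4a (edgeR adjusted p = 0.113) and Kcnj15 (0.542) missed it as well. None of the 3 passed on leaving out any 1 of 6 libraries. At D60 these were wild-type replicate 3 and transgenic replicates 1 and 3, and at D80 wild-type replicates 2 and 3 and transgenic replicate 2. Kcnj15 also missed the threshold without D80 transgenic replicate 1 (edgeR adjusted p = 0.0639). Of the 12 fits that leave out 1 library, Atp4a passed in 5, Kcnj15 in 3 and Slc9a4 in 3. All 3 genes kept their direction throughout.

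Markers of some other cells differed between genotypes as well. The 6 enterochromaffin-like and enterochromaffin cell markers, the first of these being the histamine cell that gastrin stimulates, summed to 268 to 417 CPM in D60 wild-type and 474 to 517 in D80 wild-type libraries, and to 4523 to 6195 in D60 and 25927 to 38597 in D80 transgenic libraries. All 6 were called higher at D80 and 5 at D60, where 19.4% and 3.66% of all genes were called higher. Most of the D80 transgenic sum was Chgb, at a mean of 22854 CPM. Chga was at 4109, Tph1 at 3383 and Hdc, which makes histamine, at 177. The sum is therefore not a measure of the histamine cell alone. Surface mucous cell markers, of which 6 of 7 were called lower at D80, summed to 75588 to 146868 CPM in D80 wild-type and 22713 to 36075 CPM in D80 transgenic libraries. Smooth muscle markers, of which 8 of 8 were called lower at D80, summed to 10303 to 17240 CPM in D80 wild-type and 2629 to 2723 CPM in D80 transgenic libraries. Chief cell markers, of which 3 of 4 tested were called lower, summed to 3586 to 9555 and 687 to 1107 CPM. Most of these sums was Pgc, at a mean of 5620.5 CPM in D80 wild-type and 902 CPM in D80 transgenic libraries. Pgc is on the gland mucous list too. Gland mucous cell markers, with 1 of 5 called lower, overlapped between the genotypes. Of all genes tested, 22% were called lower at D80, so the gland mucous count was near that share. The part of these cells in the changes of Atp4a, Esrrg, Kcnj15 and Slc9a4 was not tested.

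Genes for the signals that govern acid secretion were read beside the set. Of 12 tested genes for its stimulation and inhibition, 2 were higher and none lower at D60, where 3.66% of all genes were called higher and 0.241% lower. At D80, 6 were higher and 3 lower, where 19.4% of all genes were called higher and 22% lower. Gast, which encodes gastrin, was at 1610, 700 and 821 CPM in D80 wild-type and at 82.5, 97.7 and 93.4 CPM in D80 transgenic libraries, without overlap. Its log2 fold change was -3.52 at D80 (SE 0.38, edgeR adjusted p = 3.62e-05) and -1.16 at D60 (SE 0.35, edgeR adjusted p = 0.109). The gastrin receptor gene Cckbr went the other way, with 12, 10 and 6 counts in D80 wild-type and 634, 765 and 743 in D80 transgenic libraries, and its log2 fold change was 5.86 (SE 0.37, edgeR adjusted p = 7.98e-07). It was called at D60 too, at 3.93 (SE 0.40, edgeR adjusted p = 1.22e-04).

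Hdc, the enzyme that makes histamine, was at 1.26, 1.06 and 1.39 CPM in D80 wild-type and at 161, 221 and 150 CPM in D80 transgenic libraries. Its log2 fold change was 7.16 at D80 (SE 0.25) and 5.37 at D60 (SE 0.25), both past the edgeR test. Slc18a2, which loads histamine and other amines into vesicles, was called higher at D80 at 2.68, and Sst, which encodes somatostatin, was called lower at -1.86, from a mean of 76.5 to 21.1 CPM. The histamine receptor gene Hrh2 was scarcely detected, with 0 counts in the D60 wild-type group, 7 in the D80 wild-type group and 52 in the D80 transgenic group. Its D80 call, at 2.42, was lost on leaving out replicate 1 or 2 of the wild-type or replicate 2 or 3 of the transgenic D80 libraries. Chrm3, the muscarinic receptor for acetylcholine, was at -0.82 (edgeR adjusted p = 0.0583) and passed without D80 wild-type replicate 3. Hdc and Slc18a2 are markers of the enterochromaffin-like cell as well, and Cckbr is expressed on that cell too.

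**Figure D4:**
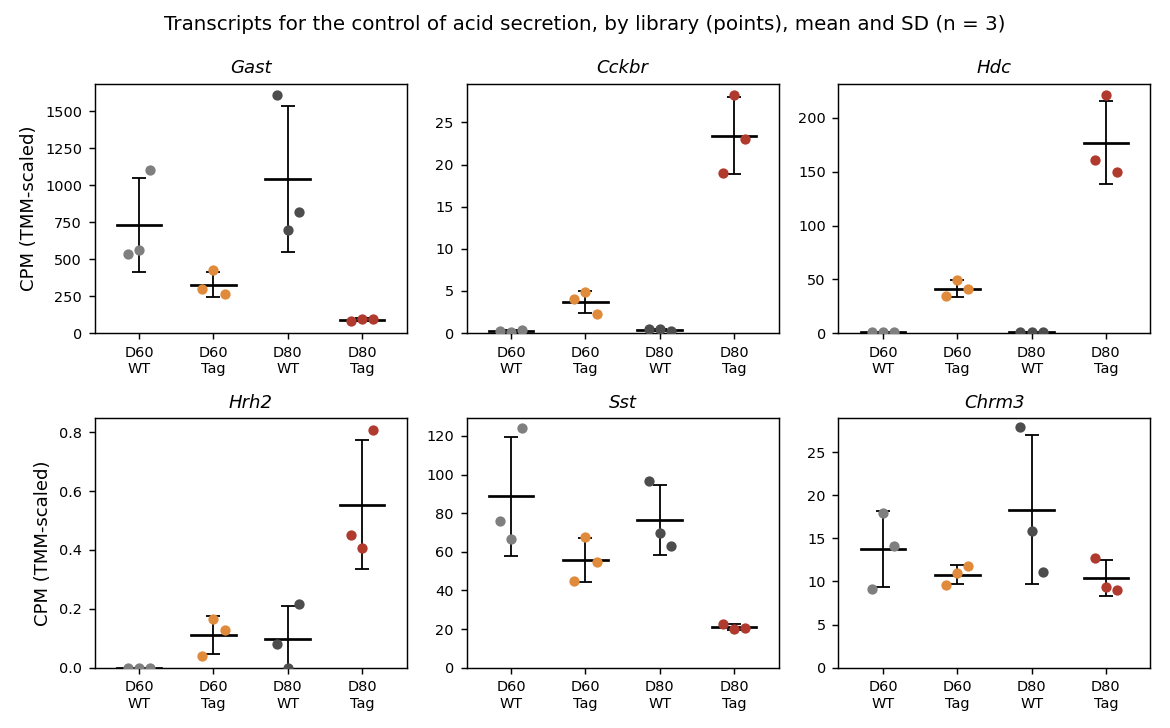
Levels of 6 genes that govern acid secretion in CPM (vertical axes, linear, a scale of its own for each gene) in each of the 12 libraries (points) with the mean and SD of each group (bars, n = 3); Tag stands for the transgenic mice. The D80 transgenic libraries are the lowest for Gast and Sst and the highest for Cckbr, Hdc and Hrh2, while Chrm3 overlaps between genotypes.

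Ion transport genes of the parietal cell outside the set were called about as often at D80 as all genes, of which 41.3% were called (19.4% higher, 22% lower). Of 12 tested ion transport genes, edgeR called none at D60 (2 at an unadjusted p under 0.05, 1 with DESeq2), where 3.9% of all genes were called. At D80 none was higher and 5 were lower, with a median of -0.50. Car2, the carbonic anhydrase that supplies protons, was at 1322, 1768 and 1944 CPM in D80 wild-type and at 952, 682 and 584 CPM in D80 transgenic libraries, a log2 fold change of -1.18 (SE 0.24, edgeR adjusted p = 0.00297). Kcnj16, a partner of other inward rectifiers, was at -2.00 (SE 0.39, edgeR adjusted p = 0.00199). The exchanger Slc9a2 at -1.23 and the cotransporter Slc12a2 at -0.79 were also called. Slc4a2, the basolateral bicarbonate exchanger, was at -0.27 (edgeR adjusted p = 0.128). The number called lower was 3 without D80 wild-type replicate 1, D80 transgenic replicate 2 or D80 transgenic replicate 3, with upper-quartile factors and with only the groups compared, and with library totals alone 3 were lower and 2 higher.

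For the tubulovesicles and the apical membrane, where the pump is stored and inserted, 11 genes were tested. At D60 edgeR called none of them (0 at an unadjusted p under 0.05, 0 with DESeq2), where 3.9% of all genes were called. At D80, where 41.3% of all genes were called, 1 was higher and 8 were lower, with a median of -0.67. Ezr, which encodes ezrin of the apical cytoskeleton, was at 471, 340 and 262 CPM in D80 transgenic and at 590, 1308 and 1406 CPM in D80 wild-type libraries (log2 fold change -1.62, SE 0.33, edgeR adjusted p = 0.00271). Rab25, a GTPase of vesicle recycling, was called lower at -0.92, and Lasp1, an actin-binding protein, at -1.15. Vamp2, a vesicle fusion protein, was the 1 called higher, at 1.25. Surface mucous cell markers were lower in the same libraries, and their part in these counts was not tested. The number called lower was 4 without D80 transgenic replicate 3, 5 with only the groups compared or without both doubted D80 libraries, and 3 with library totals alone, where 2 were higher. Gif, the intrinsic factor gene, which in the mouse is expressed in chief cells, was also lower at D80, at -1.97 (SE 0.44, edgeR adjusted p = 0.00467).

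Relatives of some of the 8 genes were read for comparison at D80, where 41.3% of all genes were called (19.4% higher, 22% lower). Of 10 tested relatives of Kcnj15, 4 were higher and 1 was lower. The 4 were Kcnj3, Kcnj4, Kcnj5 and Kcnj6, channels of neurons and excitable cells, at 3.14 to 6.31, and the other was Kcnj16. Kcnj15 thus moved in the direction of Kcnj16 and against these 4. The same 4 were called higher at D60, where 3.66% of all genes were called higher. None of the 4 passed there with sex as a covariate, and 1 passed without any 1 of the D60 wild-type libraries or D60 transgenic replicate 2. Kcnj4 and Kcnj6 had 5 counts each in the D80 wild-type group, so their baselines are imprecise.

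Of 13 tested relatives of Slc26a7 and Slc9a4, 3 were higher and 3 lower, a share near the 41.3% of all genes called at D80. Slc9a5 and Slc9a7, exchangers of neurons and of the Golgi, were higher at 2.38 and 2.25, and Slc9a8 was lower at -0.54. Of 6 tested estrogen-related receptors and coactivators, none was higher, and Esrra and Ppargc1b were lower at -0.64 and -0.98, while Esrrg rose. The calls of this small list ranged from 0 to 2 lower over the alternatives. The direction of changes under 0.5 on the log2 scale depends on the scaling at D80, where the use of library totals alone moved the median of all genes by 0.415.

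The genes whose pattern was most like that of Atp4a were found by the root mean square difference of log2 CPM, centred on each gene, over the 12 libraries. They were Diras1 (0.32), a Ras-like GTPase, Slc7a14 (0.37), B430212C06Rik (0.41), Lrrtm2 (0.41), a synaptic adhesion protein, and Svop (0.42), a synaptic vesicle protein. Slc7a14 averaged 2.88, 5.84, 2.59 and 29.8 CPM in D60 wild-type, D60 transgenic, D80 wild-type and D80 transgenic libraries, against 0.924, 1.76, 0.521 and 8.47 CPM for Atp4a. Within the set, Esrrg was nearest at 0.79, ranking 441 among the genes outside the set, and Kcnj15 was farthest at 2.5.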

How the data were processed

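The authors deposited raw counts per gene for 12 bulk pylorus libraries and a normalized signal table of 15465 genes. Per the labels' protocols, the RNA kit was from Qiagen and the library kit was TruSeqHT stranded mRNA from Illumina. Tools listed by the submitters' processing notes, with no role, are edgeR 3.16.5, HTSeq 0.9.1 and STAR 2.5.3a, and the build is mm10. Neither the annotation nor the counting's strand setting is stated. Dividing the deposited signal by 1 factor per library gave whole counts for 100.0% of values (tolerance 0.01 of a count), equal to the raw counts in the 15442 genes matched by name, and the count test on them called 599 genes at D60 and 6352 at D80, against 599 and 6354 from the raw counts.

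Groups came from the titles. Counts were fitted in R 4.3.3 with edgeR 4.0.16 (filterByExpr, 15369 genes kept, TMM factors 0.805 to 1.3, 1 coefficient per group, quasi-likelihood test, 8 residual degrees of freedom, biological coefficient of variation 24.2%). Benjamini-Hochberg adjustment ran over the whole table of tested genes, and the threshold was 0.05. Levels per length used the union of exons in GENCODE M21. Alternatives were other scalings and filters, DESeq2 1.42.0, limma-voom and limma on the normalized signal (limma 3.58.1, offset 0.5), a replicate block, only the groups compared, sex as a covariate, and leaving out each library. Counts recovered from the signal and leaving out 2 libraries together were added after seeing the data. The scripts were tested on simulated data.

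The 8 genes and all lists were chosen with earlier results of these data known. Named genes were the 8, up to 4 called members per list with the smallest p at D80, a few fixed genes of acid control, and the 5 genes most like Atp4a. Some of the genes this rule names are not reported here. Intervals and the floor of 3 counts cover counting error only.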

Additional observations from a re-analysis of the deposited data

Results flagged for a closer look

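The genotype difference of 3 genes differed between the ages by the interaction test. The value was 3.03 for Atp4a (edgeR adjusted p = 0.0337), -2.91 for Kcnj15 (edgeR adjusted p = 0.0409) and -1.35 for Slc9a4 (edgeR adjusted p = 0.0428), on the log2 scale as D80 minus D60. For Atp4a the log2 genotype difference was 0.97 at D60 and 4.0 at D80. For Kcnj15 it was 0.64 and -2.28, and for Slc9a4 -0.10 and -1.45. The call was kept under 13 of 24 alternatives for Atp4a, 11 of 24 for Kcnj15 and 13 of 24 for Slc9a4, and the direction under all 24 for each. At D60 the 3 wild-type libraries held Y-linked transcripts and the 3 transgenic libraries Xist, and with sex as a covariate the values were 4.01, -1.74 and -2.46. In that fit Atp4a (edgeR adjusted p = 0.113) and Kcnj15 (0.542) were not called, and Slc9a4 was the 1 gene of the set still called. The sex term of that fit rests on D80 transgenic replicate 1 against replicates 2 and 3, so these values do not separate sex from genotype at D60. No formal test for single outlying samples was made in groups of 3 libraries. Libraries that stood apart by marker sums are named above, and each library was left out in turn.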

How the results depend on the processing

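The alternatives computed numbered 25, of which 12 leave out 1 library. At D80 the 4 calls between genotypes were kept under all of them, except that Kcnj15 was lost without D80 wild-type replicate 3 and D80 transgenic replicate 1 together (-1.60). Kcne2 and Slc26a7 have no value under the filter at 1 CPM, which removes them, and the interaction none for the groups compared alone, since it uses all 4. Library totals alone shifted the median log2 fold change of all genes by 0.108 at D60, 0.415 at D80, 0.365 between transgenic ages and 0.307 in the interaction, and upper-quartile factors by 0.159 at D80 and 0.118 in the interaction. Of the genes called at D80, 46.8% were higher, 63% with upper-quartile factors and 83.6% with library totals. Between transgenic ages the share was 49.6% and 82.4% with library totals, and in the interaction 55.3%, 65.4% with upper-quartile factors and 79.3% with library totals.

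The number of genes called at D60 was 599, 969 with DESeq2 and 85 with sex as a covariate, and 378 to 736 on leaving out 1 library. Between transgenic ages it was 5490, and 3507 to 6594 on leaving out 1 library, the lowest without D80 transgenic replicate 2. Between wild-type ages it was 0, 260 with DESeq2, 5 with only the groups compared, 1 with sex, 7 without both D80 libraries, and 0 to 396 on leaving out 1 library, the highest without D80 wild-type replicate 1. In the interaction it was 768, 1735 with DESeq2, 423 with limma-voom, 1320 with limma on the normalized signal, 99 with sex, and 193 to 2419 on leaving out 1 library, the lowest without D60 transgenic replicate 3 and the highest without D80 wild-type replicate 1. The number of acid secretion genes called in the interaction was 3, and it was 1 with limma-voom, 1 with the replicate block, 1 with sex, 1 without both D80 libraries, and 0 to 3 on leaving out 1 library. The cause of these changes was not tested.

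No pairing of libraries by replicate number was seen over all groups together, and pairing within an age or a genotype was not examined. The deviations of the 18 same-number pairs correlated at a mean of -0.00405 (-0.344 to 0.393), with 6 pairs over 0.1. The replicate block left 4 of the 7 genes called at D80, with log2 fold changes of 4.02 for Atp4a, -2.30 for Kcnj15, -1.51 for Slc9a4 and 2.83 for Esrrg. It called 611 genes at D60, 5993 at D80, 5189 between transgenic ages, 0 between wild-type ages and 635 in the interaction.

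Signs reversed only in differences that were not called. At D60 between genotypes, Slc9a4 was at 0.024 with library totals alone and 0.69 with sex, and it ran from -0.23 to 0.10 on leaving out 1 library. Kcnj15 was at -0.29 with sex, and Slc26a7 ran from -0.67 to 0.27 on leaving out 1 library. Between wild-type ages, Kcnj15 was at -0.0040 with DESeq2's factors in edgeR, -0.0062 with DESeq2, -0.0019 with limma on the normalized signal, -0.034 with the replicate block, -0.90 with sex and -0.41 without both D80 libraries. It ran from -0.41 to 0.66 on leaving out 1 library, negative without replicate 2 or 3 of either wild-type group. Slc9a4 was at 0.042 with library totals alone, 0.011 with the replicate block, 0.76 with sex and 0.0023 without both D80 libraries, and ran from -0.15 to 0.17 on leaving out 1 library. Slc26a7 ran from -0.82 to 0.35 on leaving out 1 library and was at 0.31 without both D80 libraries. Esrrg was at -0.13 with sex. Depth limited Atp4b, Kcne2 and Slc26a7, which stayed under 1.4 CPM.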
